A study of Homo sapiens with 9 samples.

Results

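The NRF2 pathway was followed across the 9 libraries through 10 genes, chosen by symbol in the table of counts: NFE2L2, which encodes NRF2, its regulators KEAP1 and SQSTM1, and the target genes GCLC, GCLM, TXNRD1, SRXN1, HMOX1, NQO1 and OSGIN1. Each symbol matched 1 of the 60683 genes listed, and 10 of 10 were among the 22672 genes with enough counts to be tested. The libraries came from cultures of Hep3B, an established human liver cancer line, and fall into 3 groups of 3 biological replicates. Cells were kept for 24 hours at 20% O2 with vehicle (DMSO), at 1% O2 with vehicle, or at 1% O2 with 32-134D. 32-134D is an inhibitor of the hypoxia-inducible factors HIF-1 and HIF-2, the transcription factors that drive much of the response to low oxygen. No library in the series held cells given 32-134D at 20% O2, so effects of the compound that do not involve hypoxia cannot be told apart from its effects on hypoxic expression.

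NRF2 is a transcription factor that is made continuously and, in unstressed cells, is bound by KEAP1, which directs it to a ubiquitin ligase for degradation. Oxidants and electrophiles modify cysteines of KEAP1, NRF2 then accumulates, pairs with small MAF proteins and binds antioxidant response elements (AREs) near genes for glutathione synthesis, thioredoxin recycling, NADPH supply and detoxification. Hepatocytes rely on this programme to handle reactive metabolites, and liver cancers can carry it in a constantly active state. Because NRF2 is controlled mainly as a protein, read counts of NFE2L2 are not a measure of NRF2 activity.

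The upstream sequences of the genes were examined for ARE cores, TGACNNNGC or TGAGNNNGC on either strand, in RefSeq promoter windows (GRCh38.p14, from 250 bases before to 50 bases after each annotated start). The table held 14 windows for 9 of the 10 genes, without HMOX1. An ARE core was found in 8 of the 14 windows, belonging to 7 genes, while 29.1% of all 35116 windows held one. The windows of GCLC and SRXN1 held none. The hypoxia response element core ACGTG was in 0 of the 14 windows and in 21.4% of all windows. The other form of that core, GCGTG, was in 9 of 14 windows, belonging to 8 genes, and in 36.5% of all windows. The E-box CACGTG, which contains ACGTG, was in 0 of 14 windows and in 7.26% of all windows. The AP-1 motif TGACTCA was in the OSGIN1 window only among these 14, where it overlaps the ARE core, and in 4.95% of all windows. These matches are short letter strings, and an enhancer outside a window was not searched. The 250 bases upstream of the start are shown, 5′ to 3′ on the strand of the gene, for OSGIN1, TXNRD1 and GCLM. These hold an ARE core, and their counts rose at 1% O2 and stayed above normoxia with 32-134D. NFE2L2 met the same conditions and is not shown. GCLC and SRXN1 also stayed above normoxia, without a core in their windows. KEAP1, NQO1 and SQSTM1 held a core and were not called above normoxia by the thresholds given below. A relation between cores and counts was not tested. ARE cores that lie wholly in the shown bases are in capitals.
OSGIN1: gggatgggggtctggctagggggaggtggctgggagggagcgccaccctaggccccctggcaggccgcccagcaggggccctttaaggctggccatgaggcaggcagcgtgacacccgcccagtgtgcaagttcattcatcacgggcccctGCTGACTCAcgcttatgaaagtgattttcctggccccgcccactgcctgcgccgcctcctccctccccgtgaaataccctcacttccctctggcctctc
TXNRD1: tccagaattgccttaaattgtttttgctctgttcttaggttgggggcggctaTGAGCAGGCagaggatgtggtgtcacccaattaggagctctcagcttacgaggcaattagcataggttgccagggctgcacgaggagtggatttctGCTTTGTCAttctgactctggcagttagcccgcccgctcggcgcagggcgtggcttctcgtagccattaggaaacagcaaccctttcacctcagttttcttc
GCLM: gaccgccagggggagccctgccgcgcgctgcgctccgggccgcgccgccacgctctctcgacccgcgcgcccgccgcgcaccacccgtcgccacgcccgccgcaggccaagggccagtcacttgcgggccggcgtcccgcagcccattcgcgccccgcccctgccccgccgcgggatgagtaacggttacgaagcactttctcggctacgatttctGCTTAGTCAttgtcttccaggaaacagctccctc
The OSGIN1 stretch is chr16:83952990-83953239 on the plus strand, with GCTGACTCA at bases -99 to -91 from the start. The TXNRD1 stretch, 1 of 2 windows listed for this gene, is chr12:104286782-104287031 on the plus strand, with TGAGCAGGC at -198 to -190 and GCTTTGTCA at -102 to -94. The GCLM stretch is chr1:93909431-93909680 on the minus strand, with GCTTAGTCA at -34 to -26. The KEAP1 gene itself, on the minus strand of chromosome 19, had 3 ARE cores in 1 of its 2 windows, as follows.
KEAP1: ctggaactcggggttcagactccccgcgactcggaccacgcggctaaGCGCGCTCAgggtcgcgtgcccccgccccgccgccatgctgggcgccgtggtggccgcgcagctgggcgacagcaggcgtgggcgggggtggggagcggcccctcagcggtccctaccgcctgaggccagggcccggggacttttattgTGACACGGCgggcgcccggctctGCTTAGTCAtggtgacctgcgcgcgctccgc
This stretch is chr19:10502772-10503021, and its matches are GCGCGCTCA at -203 to -195, TGACACGGC at -54 to -46 and GCTTAGTCA at -31 to -23, the last the same letters as in GCLM.

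Total counts were between 6013980 and 40549699 per library, with the smallest in replicate 2 of vehicle at 20% O2. All 8 liver markers were detected in all groups, with group means from 24.5 CPM (counts scaled to a common library size) for FGB to 9535 CPM for ALB. Their sum was 16600 to 18000 CPM per library in vehicle at 20% O2, 11600 to 14500 CPM in vehicle at 1% O2 and 11200 to 16500 CPM with 32-134D, and APOB moved most, with means of 4486, 405.5 and 3519 CPM. By contrast, CD3E, ACTA2, KRT5 and VWF, markers of T cells, stellate cells, squamous epithelium and endothelium, were at 0 counts in every library. Of 9 markers of other cell types, 4 were thus at 0, and their sum was 7.54 to 8.79 CPM per library in vehicle at 20% O2, 3.8 to 5.22 CPM in vehicle at 1% O2 and 6.75 to 12.1 CPM with 32-134D, mostly COL1A1 of fibroblasts. The part of these levels in the results was not tested. The HIF target CA9, a carbonic anhydrase, had mean levels of 27.9, 579.8 and 56.6 CPM in vehicle at 20% O2, vehicle at 1% O2 and 32-134D at 1% O2. Replicate 3 of 32-134D stood apart from the other 2 libraries of its group, and chi-square values divided by their degrees of freedom were 40.5 and 36.2 against them, where the other 7 pairs of replicates had 1.64 to 13.3, a statistic that grows with depth. The AhR target CYP1A1, a cytochrome P450, was at 104.2, 127.5 and 1086 CPM in the 3 libraries of 32-134D, and at 1.07 to 6.75 CPM in the vehicle libraries. Its relation to the results on the NRF2 genes was not tested, and results on the 10 genes whose call changes without this library are given without it too.

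Most of the 10 genes rose at 1% O2 and were lower again with 32-134D. The 3 comparisons were made from 1 edgeR quasi-likelihood fit, and they share groups. Calls required an FDR (Benjamini-Hochberg, over all 22672 genes) under 0.05 together with a change of more than 1.5-fold. At 1% O2 in vehicle, 9 of the 10 genes rose and NQO1 fell, where 19.5% of all tested genes rose and 20.3% fell (39.7% in either direction, and 53.5% by the FDR alone). With 32-134D at 1% O2, 6 of the 10 fell (KEAP1, HMOX1, GCLC, TXNRD1, OSGIN1 and SQSTM1) and NQO1 rose, against 13.7% of all genes that fell and 16.2% that rose (29.9% in either direction, and 47.5% by the FDR alone). The other 3, NFE2L2, GCLM and SRXN1, were lower at an FDR below 0.05 but by less than 1.5-fold. Against vehicle at 20% O2, the cells with 32-134D at 1% O2 were still higher in 6 of the 10 (NFE2L2, GCLC, GCLM, TXNRD1, SRXN1 and OSGIN1), a call that 3% of all genes met, and lower in 0, where 0.516% of all genes were lower (3.52% in either direction, and 10.3% by the FDR alone). KEAP1 and SQSTM1 were higher there by the FDR but not by 1.5-fold, and HMOX1 and NQO1 passed neither threshold. The count of lower genes was also 0 at an unadjusted p under 0.05 and by DESeq2. The median log2 fold change of the 10 was 1.53 with hypoxia, -0.75 with the compound and 0.81 for the compound against normoxia, while the medians over all genes were 0, -0.01 and 0. Scaled by total library size, the median of all genes moved to -0.21 with hypoxia and 0.17 with the compound, and relative to these shifts the 10 genes kept their directions.

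**Figure D1:**
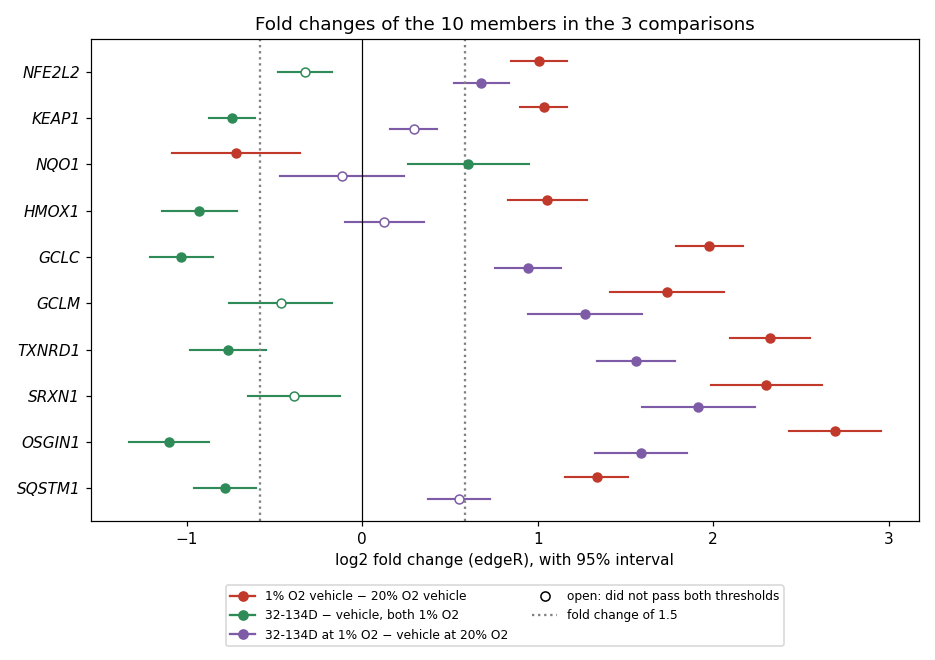
Log2 fold changes of the 10 genes in the 3 comparisons (x axis), with the 95% interval of each from the edgeR fit as a line and open symbols where a threshold was missed. Hypoxia values lie from -0.72 for NQO1 to 2.69 for OSGIN1, the values of the compound are of the opposite sign for every gene, and those of the compound against normoxia lie above 0 for 9 of the 10.

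In a bulk culture, fewer cells with a transcript and less RNA per cell cannot be told apart, and every level below is an average over the culture. NFE2L2 (ENSG00000116044, chr2:177227595-177392697, minus strand) was at 126.5, 128.3 and 126.1 CPM in replicates 1, 2 and 3 of vehicle at 20% O2. In vehicle at 1% O2 it was at 258.4, 257.2 and 248.5 CPM, and with 32-134D at 190.1, 194.8 and 224.8 CPM. The 3 groups did not overlap, and the treated libraries lay between the vehicle groups. The log2 fold change with hypoxia was 1.00 ± 0.07 (SE, n = 3 per group; FDR 3.17e-08), the difference with the compound was -0.33 ± 0.07 (FDR 0.00177), and the compound against normoxia gave 0.68 ± 0.07 (FDR 4.1e-05).

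KEAP1 (ENSG00000079999, chr19:10486120-10503741, minus strand), the adaptor that marks NRF2 for degradation, rose with hypoxia and fell with the compound, with little spread among replicates. Its libraries held 185.2, 182.4 and 179.1 CPM at 20% O2, 377.8, 375.0 and 366.9 CPM at 1% O2, and 228.1, 222.8 and 218.3 CPM with 32-134D. The SD within each group was at most 5.69 CPM, far below the distances between groups. The rise with hypoxia was 1.03 ± 0.06 on the log2 scale (FDR 3.86e-09) and the log2 difference with the compound was -0.74 ± 0.06 (FDR 2.36e-07). What remained above normoxia was 0.29 ± 0.06 (FDR 0.00774), a 1.22-fold difference that misses the fold threshold. With scaling by total library size the fall with the compound was -0.56 and missed it too.

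SQSTM1 (ENSG00000161011, chr5:179806398-179838078, plus strand) encodes p62, an autophagy receptor that can bind KEAP1 and release NRF2, and is itself an NRF2 target. It had the most counts of the 10 genes, 281105 over the 9 libraries. Its levels were 724.0, 688.0 and 696.6 CPM at 20% O2, 1780, 1789 and 1750 CPM at 1% O2, and 972.2, 937.9 and 1180 CPM with 32-134D. Again no groups overlapped, with the third treated library the nearest to hypoxic vehicle. The log2 fold changes were 1.33 ± 0.08 with hypoxia (FDR 6.03e-09), -0.78 ± 0.08 with the compound (FDR 2.39e-06) and 0.55 ± 0.08 for the compound against normoxia (FDR 0.000617). The last was 1.47-fold, just under the threshold, and it passed at 0.61 without replicate 3 of vehicle at 1% O2, at 0.59 without replicate 1 of 32-134D and at 0.61 without replicate 2 of 32-134D. Of the exonic bases of SQSTM1, 20.7% overlap MRNIP on the opposite strand, which had 3473 counts, and since the strand setting of the counting is not given, reads there cannot be assigned with certainty.

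**Figure D2:**
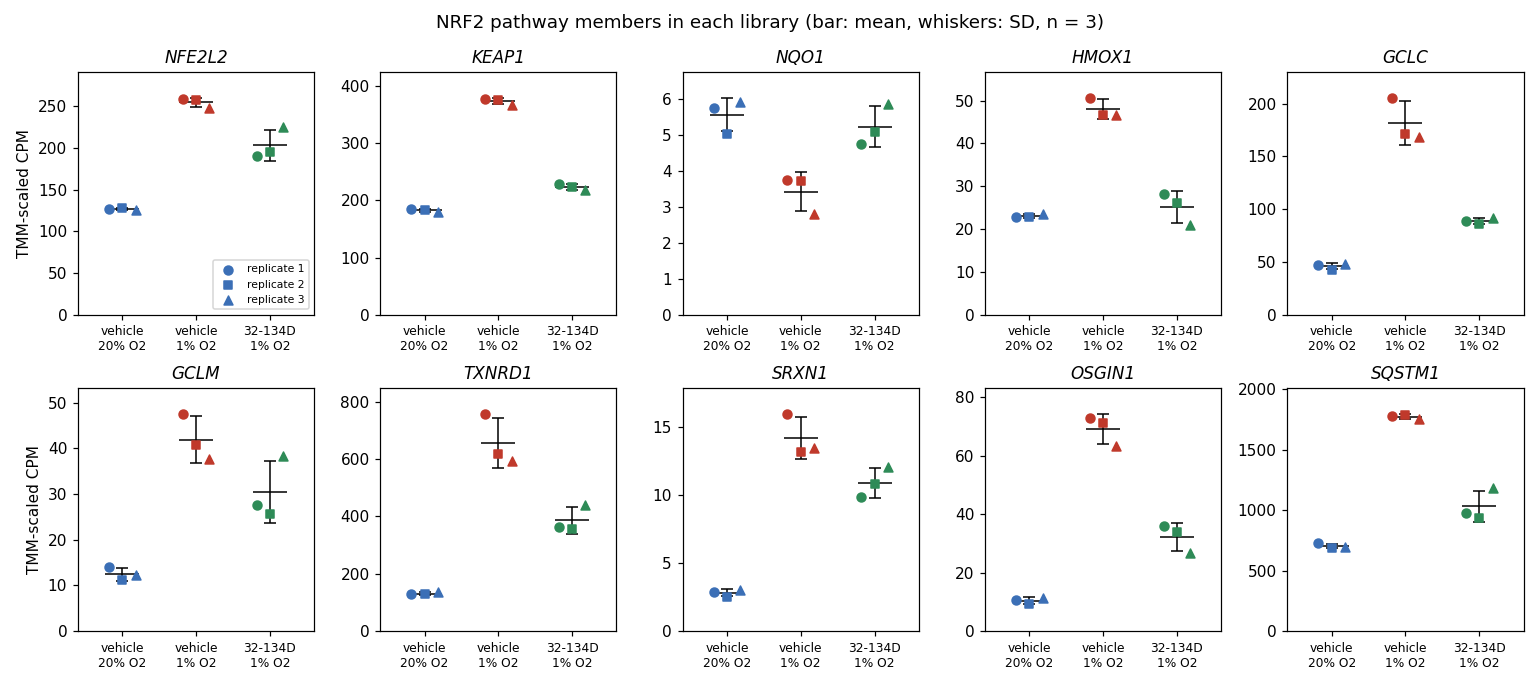
Level of each of the 10 genes in each of the 9 libraries, in TMM-scaled CPM (y axis, from 0), by group (x axis), with symbols for the replicates, bars for the means and whiskers for the SD (n = 3). The libraries of vehicle at 1% O2 lie above both other groups for every gene but NQO1, where they lie below, and but GCLM, where replicate 3 of 32-134D at 38.2 CPM lies within their range.

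Glutathione, the main small thiol of the cell, is made by glutamate-cysteine ligase, of which GCLC is the catalytic and GCLM the modifier subunit. Both subunits rose at 1% O2 and both were lower with the compound at an FDR under 0.05, GCLC alone by more than 1.5-fold. The difference between them was not tested. GCLC (ENSG00000001084, chr6:53497341-53616970, minus strand) was at 47.0, 42.7 and 47.8 CPM at 20% O2, 205.4, 170.8 and 168.1 CPM at 1% O2, and 88.7, 85.9 and 91.8 CPM with 32-134D. The treated libraries were close to each other and about midway on the log scale. GCLC rose 3.94-fold with hypoxia (log2 1.98 ± 0.09, FDR 2.5e-10), fell with the compound by a log2 difference of -1.03 ± 0.08 (FDR 2.1e-07), and stayed 1.93-fold above normoxia (log2 0.94 ± 0.09, FDR 8.17e-06).

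GCLM (ENSG00000023909, chr1:93885205-93909456, minus strand) had fewer counts, 71 in the smallest library. It was at 13.98, 11.2 and 12.3 CPM at 20% O2, 47.5, 40.7 and 37.6 CPM at 1% O2, and 27.7, 25.5 and 38.2 CPM with 32-134D. The treated group overlapped hypoxic vehicle through replicate 3 alone. The rise with hypoxia was 1.74 ± 0.15 on the log2 scale (FDR 1.83e-07). The difference with the compound was -0.47 ± 0.14 (95% interval -0.76 to -0.17, FDR 0.0113), and without replicate 3 of 32-134D it was -0.66 (FDR 1.44e-06), past the fold threshold. Above normoxia GCLM stayed 2.41-fold higher (log2 1.27 ± 0.15, FDR 9.27e-05).

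TXNRD1 and SRXN1 serve the thioredoxin system, which reduces protein disulfides and peroxiredoxins: TXNRD1 is the cytosolic thioredoxin reductase, a selenoprotein, and SRXN1 is sulfiredoxin, which repairs overoxidized peroxiredoxins. Both rose about 5-fold and both stayed well above normoxia with the compound. TXNRD1 (ENSG00000198431, chr12:104215779-104350305, plus strand) was at 128.1, 129.4 and 135.1 CPM at 20% O2, 756.7, 618.3 and 591.9 CPM at 1% O2, and 361.9, 354.9 and 440.2 CPM with 32-134D. No groups overlapped. The log2 fold change was 2.32 ± 0.11 with hypoxia (FDR 2.73e-10), -0.77 ± 0.10 with the compound (FDR 1.79e-05) and 1.56 ± 0.10 for the compound against normoxia (FDR 3.32e-07). Scaled by total library size, the fall with the compound was -0.58 and just missed the fold threshold.

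SRXN1 (ENSG00000271303, chr20:646615-653370, minus strand) was the lowest of the 10 per exon length at 20% O2, at 2.87, 2.51 and 3.01 CPM, with 16 counts in the smallest library. Of its exonic bases, 85% overlap AL121758.1 on the same strand, which had 0 counts, so reads there may have been left uncounted and its level and rank among the genes are uncertain. It was at 15.9, 13.2 and 13.4 CPM in vehicle at 1% O2 and at 9.84, 10.8 and 12.03 CPM with 32-134D. The hypoxic and treated groups lay next to each other without overlap, and both lay far above normoxia. The rise with hypoxia was 4.94-fold (log2 2.30 ± 0.15, FDR 7.67e-09). The difference with the compound was -0.39 ± 0.12 (95% interval -0.65 to -0.13, FDR 0.0167), 1.31-fold and not called, and the treated cells stayed 3.77-fold above normoxia (log2 1.91 ± 0.15, FDR 1.49e-06).

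HMOX1 and NQO1 are the textbook enzymes of the NRF2 response, and in these cells they parted. HMOX1 is heme oxygenase 1, which opens the heme ring and is also held down by the repressor BACH1. The BACH1 transcript moved in the same directions as that of HMOX1, at log2 1.29 with hypoxia (FDR 2.13e-09) and -0.79 with the compound (FDR 4.71e-07). It was at 0.50 for the compound against normoxia, under 1.5-fold. Any relation between the 2 genes was not tested. HMOX1 (ENSG00000100292, chr22:35380361-35394214, plus strand) was at 22.9, 22.8 and 23.4 CPM at 20% O2, 50.6, 46.7 and 46.5 CPM at 1% O2, and 28.2, 26.1 and 21.0 CPM with 32-134D. The treated libraries overlapped normoxia and were below all hypoxic vehicle libraries. HMOX1 rose by 1.05 ± 0.10 on the log2 scale (FDR 6.63e-07) and fell with the compound by 0.93 ± 0.10 (FDR 2.77e-06). The compound against normoxia gave 0.13 ± 0.10 (95% interval -0.10 to 0.35, FDR 0.517), so a remaining rise of up to 0.35 is within the interval.

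NQO1 (ENSG00000181019, chr16:69706996-69726951, minus strand), a quinone reductase and also an AhR target, went against the rest, at a low level. It was at 5.74, 5.02 and 5.90 CPM at 20% O2, 3.74, 3.72 and 2.80 CPM at 1% O2, and 4.74, 5.08 and 5.85 CPM with 32-134D, from 1053 counts in all and 32 in the smallest library. The hypoxic libraries were the lowest, and the other groups overlapped. The fall with hypoxia was -0.72 ± 0.17 (95% interval -1.09 to -0.36, FDR 0.00217) and the rise with the compound was 0.60 ± 0.16 (FDR 0.00632), 1.52-fold. That rise is at the edge of the threshold: it was 0.52 (FDR 0.00612) without replicate 3 of 32-134D and 0.55 (FDR 0.0231) without replicate 3 of vehicle at 1% O2, both under 1.5-fold. With all libraries thinned to the depth of the smallest, the fall was -0.45 (FDR 0.107) and the rise 0.36 (FDR 0.23), and neither was called. Against normoxia the compound gave -0.12 ± 0.17 (95% interval -0.47 to 0.24, FDR 0.733).

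OSGIN1 (ENSG00000140961, chr16:83948282-83966332, plus strand), an oxidative stress induced growth inhibitor, had the largest hypoxic change of the 10. Its levels were 10.7, 9.26 and 11.4 CPM at 20% O2, 73.0, 71.2 and 63.5 CPM at 1% O2, and 35.9, 33.8 and 26.8 CPM with 32-134D. No groups overlapped, and the third treated library was the lowest of its group, unlike in TXNRD1, SRXN1 and GCLM. OSGIN1 rose 6.47-fold (log2 2.69 ± 0.12, FDR 2.73e-10), fell by 1.10 ± 0.11 with the compound (FDR 1.05e-06), and stayed 3.01-fold above normoxia (log2 1.59 ± 0.12, FDR 1.24e-06).

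Libraries of the groups did not overlap for 10 of 10 genes in the hypoxia comparison, where this held for 60.5% of all genes, for 9 of 10 with the compound, where it held for 56.1%, and for 8 of 10 for the compound against normoxia, where it held for 29.8%. The third library of 32-134D was the highest of its group in 7 of the 10 genes and the lowest in KEAP1, HMOX1 and OSGIN1. Relative to the mean of the other 2 treated libraries it was 1.44-fold in GCLM, 1.24-fold in SQSTM1 and 1.23-fold in TXNRD1, and 0.775-fold in HMOX1 and 0.769-fold in OSGIN1. Among 9878 genes with a mean of at least 10 CPM, this library was the highest of its group in 43% and the lowest in 45.8%. Without it, 6 of the 10 genes were higher than in normoxia, and 7 fell with the compound, GCLM being the added gene.

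The genes differed in how much of the hypoxic rise was left with 32-134D, a measure chosen after the data were seen: the log2 difference between the compound and normoxia as a percent of the log2 difference between the vehicle groups. SRXN1 kept 83.2% of its rise, with 78.8%, 84.5% and 91.4% in the 3 treated libraries. GCLM kept 73.1%, NFE2L2 67.6%, TXNRD1 67.0% and OSGIN1 59.1%. GCLC kept 47.8%, with 48.1%, 45.8% and 50.6% in the 3 libraries, and SQSTM1 41.3%. KEAP1 kept 28.2%, with 31.3%, 28% and 25.2%, and HMOX1 kept 11.9%, with 27.4%, 17.3% and -12.5%, the last library below normoxia. Over the 4412 genes that rose with hypoxia, the median was 32.9% and the quartiles were 20.3% and 44.7%, so 6 of the 9 risen genes lay above the upper quartile, SQSTM1 lay between the median and it, and KEAP1 and HMOX1 lay below the median. KEAP1 was at 33.7% without replicate 3 of vehicle at 1% O2. The libraries of SRXN1 overlapped those of GCLM and NFE2L2 but not those of TXNRD1, OSGIN1, GCLC, SQSTM1, KEAP1 or HMOX1. From GCLM down to HMOX1, each gene in this order overlapped the next. Because both log2 differences use the same normoxic libraries, no test was made on this measure. Scaled by total library size, the percent left was 82.4% for NFE2L2, 90.3% for SRXN1, 52.0% for GCLC and 32.3% for KEAP1, and the median over all genes was not computed under that scaling.

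**Figure D3:**
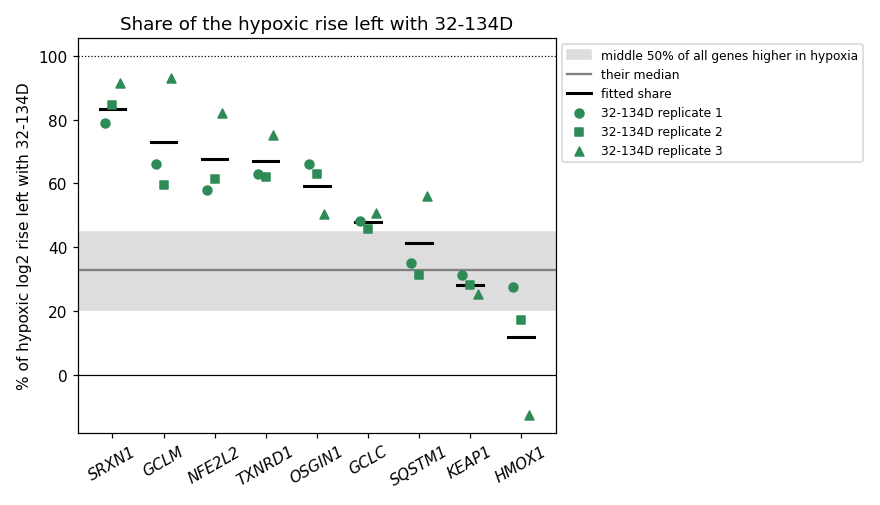
Percent of the hypoxic log2 rise left with 32-134D, for each of the 9 risen genes (x axis), with the 3 treated libraries as symbols and the fitted value as a black bar. The grey line and band are the median, 32.9%, and the quartiles of all 4412 genes that rose with hypoxia. SRXN1 is highest at 83.2% and HMOX1 lowest at 11.9%.

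Levels between genes were compared as CPM per kilobase of exon, since long transcripts collect more reads. The length was that of the exons of all annotated isoforms together, not of the isoforms expressed. The order of genes at near levels, such as NFE2L2 and TXNRD1 at 20% O2, may therefore depend on it. Of the exonic bases of NFE2L2, 17.6% overlap AC019080.1 on the same strand, which had 277 counts, so reads there may have been left uncounted. The same limit holds for 85% of the exonic bases of SRXN1, so its order relative to NQO1 at 20% O2 is uncertain. At 20% O2 the order of the mean levels was SQSTM1 at 91.8, KEAP1 at 48.5, NFE2L2 at 21.2, TXNRD1 at 19.5, HMOX1 at 9.58, GCLC at 5.30, OSGIN1 at 3.02, GCLM at 2.30, NQO1 at 1.71 and SRXN1 at 1.04, and no neighbours in it overlapped in their libraries. At 1% O2 in vehicle, TXNRD1 at 97.7 had passed NFE2L2 at 42.6 and overlapped KEAP1 at 99.2. GCLC, OSGIN1 and HMOX1, at 21.0, 20.0 and 19.9, overlapped there, and NQO1 at 1.05 had become the lowest, below SRXN1 at 5.25. With 32-134D the order of the upper 4 genes was that of hypoxic vehicle, with TXNRD1 at 57.5 overlapping KEAP1 at 59.3, and NQO1 at 1.60 stayed below SRXN1 at 4.03.

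**Figure D4:**
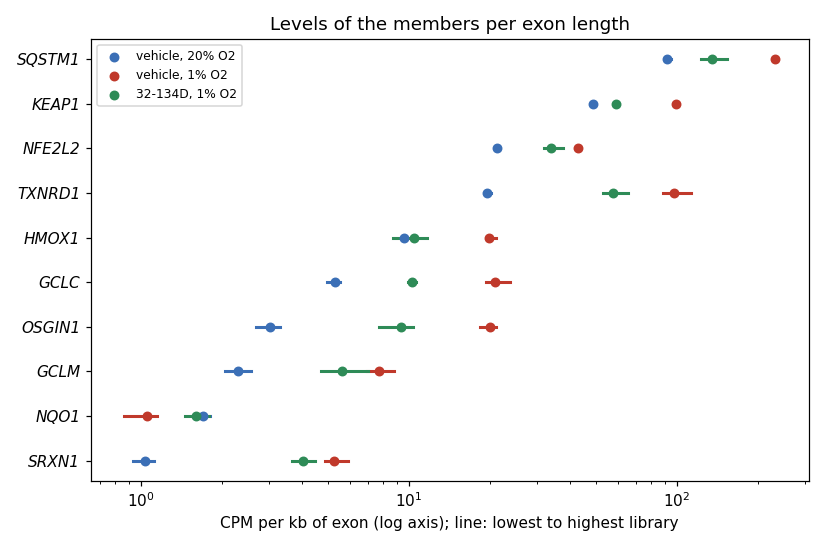
Mean level per gene (y axis) in CPM per kilobase of exon (x axis, log scale) in the 3 groups, with lines from the lowest to the highest library. SQSTM1 is the highest in each group, and SRXN1 passes NQO1 at 1% O2 with and without 32-134D.

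Genes with the most similar course over the 9 libraries were found by the root mean square difference of centred log2 CPM among 9870 genes of at least 10 CPM. The nearest to SQSTM1 was HAX1 (0.031), to KEAP1 CLP1 (0.033), to GCLC SLC25A36 (0.053), to HMOX1 USP28 (0.061) and to NFE2L2 EIF2A (0.077), on the log2 scale. NQO1 was nearest to DDX51 (0.091), OSGIN1 to SLC16A9 (0.132), GCLM to TUBE1 (0.136), and TXNRD1 to ODC1 (0.137). SRXN1 had the least close neighbour, HBEGF (0.245). The next in each case were ENSG00000107372 for SQSTM1, ENSG00000167193 for KEAP1, ENSG00000125347 for GCLC, ENSG00000160753 for HMOX1, ENSG00000135597 for NFE2L2, ENSG00000135040 for NQO1, ENSG00000162783 for OSGIN1, ENSG00000125772 for GCLM, ENSG00000171867 for TXNRD1 and ENSG00000128965 for SRXN1. These are descriptions over 9 libraries that fall in 3 groups. The distances were not divided by the SD of each gene's own course, which was 0.361 for NQO1 and 1.079 for SRXN1.

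The wider pathway was read from 84 other genes tested, of 85 listed in 7 groups, in which GSTP1 had only 9 counts. With hypoxia 25 of the 84 rose and 12 fell, with the compound 12 rose and 14 fell, and against normoxia 9 were higher and 1 lower with the compound. The medians of the log2 fold changes were 0.25, -0.22 and 0.05. The counts that rose with hypoxia and that were higher than normoxia with the compound are to be read against the 19.5% and 3% of all genes, the hypoxic falls against 20.3%, and the compound rises and falls against 16.2% and 13.7%, to which these counts are near. With upper quartile scaling 16 rose with hypoxia, and with total library size 15. The genes that rose among all 22672 fell as well, from 4412 to 3187 and 3081 under these scalings.

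Among 16 genes of NRF2 control, 6 rose and 2 fell with hypoxia, and 2 stayed above normoxia with the compound. These were the small MAF partners MAFF (log2 2.06 with hypoxia, -0.85 with the compound, 1.21 against normoxia) and MAFK (2.14, -1.52 and 0.62, the last at 0.54 and not called with upper quartile scaling). The NRF2 relative NFE2L3 had the opposite course, at -1.58 with hypoxia and 1.58 with the compound. Among 15 glutathione genes, 5 rose and 2 fell with hypoxia, and 3 stayed higher with the compound. SLC3A2, the heavy chain of the cystine transporter, was at 2.95, -1.17 and 1.78 in the 3 comparisons, and CHAC1, which degrades glutathione, was at 2.37, -0.73 and 1.64, the fall with the compound not called with total library size (-0.54) or without replicate 1 (-0.51) or 2 (-0.58) of 32-134D. GPX8, a glutathione peroxidase relative of the endoplasmic reticulum, was at 1.32, -1.42 and -0.10, the last not called, from 650 counts in all. With thinning its fall with the compound was -0.857 (FDR 0.0722) and not called. The other gene above normoxia was SLC7A11, the cystine transporter itself, named after its values were seen. Its difference from normoxia, 1.46 (FDR 0.02), was not called without any 1 of the replicates of vehicle at 20% O2 (FDR 0.0598 to 0.098) or with only the 2 groups compared (FDR 0.0664). It was at 20.3, 14.6 and 19.6 CPM at 20% O2, 50.2, 43.5 and 42.8 CPM at 1% O2, and 27.96, 29.9 and 97.0 CPM with 32-134D. The third treated library decided its value, since the log2 difference with the compound was 0.17 (FDR 0.717) with that library and -0.66 (FDR 1.32e-06) without it.

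Among 15 thioredoxin genes, 5 rose and 2 fell with hypoxia, and TXNIP, a thioredoxin inhibitor, was the only one to stay above normoxia, at log2 4.34, -2.48 and 1.86 in the 3 comparisons. TXNRD3, a paralogue of TXNRD1, went the other way, at -1.51 with hypoxia and 1.22 with the compound, as did the sestrin SESN3 at -1.35 with hypoxia. The SESN3 difference with the compound was 0.85 (FDR 0.0208), but its call was lost by DESeq2 (FDR 0.0552), with thinning (FDR 0.106), without any 1 of the replicates of vehicle at 1% O2 (FDR 0.0517 to 0.0567) and without replicate 1 or 2 of 32-134D (FDR 0.0719 and 0.0776). Of 8 NADPH genes, 4 rose and 0 fell. MTHFD2, of mitochondrial folate metabolism, was at 2.97, -1.18 and 1.79, and the malic enzyme gene ME1 rose by 0.89 with hypoxia and was 0.78 above normoxia with the compound. IDH2, the mitochondrial NADP-dependent isocitrate dehydrogenase, was at 0.60, -0.83 and -0.23, and its rise was not called under 9 alternatives, with values from 0.39 (total library size) to 0.56 (DESeq2). Among 18 genes of quinone and conjugation chemistry, 1 rose and 4 fell with hypoxia, and 5 rose with the compound. UGDH, which makes UDP-glucuronate, was the one that rose, at 2.15, -1.16 and 1.00, while the export pumps ABCC3 and ABCC2 fell by 1.31 and 0.60 with hypoxia and rose by 1.15 and 0.74 with the compound, ABCC2 at 0.53 and below the threshold without replicate 3 of 32-134D. The hypoxic fall of ABCC2 was also not called under 6 alternatives, at -0.58 to -0.52, among them leaving out replicate 3 of vehicle at 20% O2 or replicate 2 or 3 of vehicle at 1% O2. AKR1C3 was the 1 gene lower than normoxia with the compound, at -1.17 (FDR 0.0391). Its group means were 1.16 CPM at 20% O2, 0.11 CPM in vehicle at 1% O2 and 0.515 CPM with 32-134D. The log2 difference was -3.34 with hypoxia (FDR 7.71e-06) and 2.18 with the compound (FDR 0.000787), so 32-134D raised it from hypoxic vehicle. It has close paralogues, and whether its counts are affected by them was not examined. This gene was named after its values were seen, and it had 121 counts in all. The call of AKR1C3 against normoxia was lost when any 1 library other than replicate 1 of vehicle at 1% O2 was left out (FDR 0.0506 to 0.139).

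Among 8 heme and iron genes, 3 rose with hypoxia and 0 were called against normoxia with the compound. The ferritin light chain FTL was at 0.85 with hypoxia, -0.79 with the compound and 0.07 against normoxia, and the biliverdin reductase BLVRB, which acts after heme oxygenase, was at 0.83, -0.87 and -0.04. The ferritin heavy chain FTH1 was at 0.67, -0.54 and 0.14, the second not called, and the first not called with total library size (0.46), upper quartile scaling (0.48) or a filter of 10 counts in every library (0.56). Of the 4 genes of superoxide and peroxide removal, 1 rose and 2 fell: SOD1, the cytosolic superoxide dismutase, was at 0.75 with hypoxia and -0.69 with the compound. The extracellular SOD3 was at -1.08 and 1.05, from 366 counts in all. With thinning SOD3 was at -0.933 (FDR 0.135) and 0.215 (FDR 0.782), neither called. The mitochondrial SOD2 was at -0.82 and 0.50, the last not called. SOD2 is listed under more than 1 gene ID, and the one with the most counts was used. Without replicate 3 of 32-134D the SOD2 difference was 0.75 (FDR 8.05e-10), and it was called there, without replicate 3 of vehicle at 1% O2 (0.59) and under 4 settings of scaling, filter or depth. The hypoxic and compound calls of SOD1 were lost with total library size, at 0.53 and -0.50, and with upper quartile scaling.

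**Figure D5:**
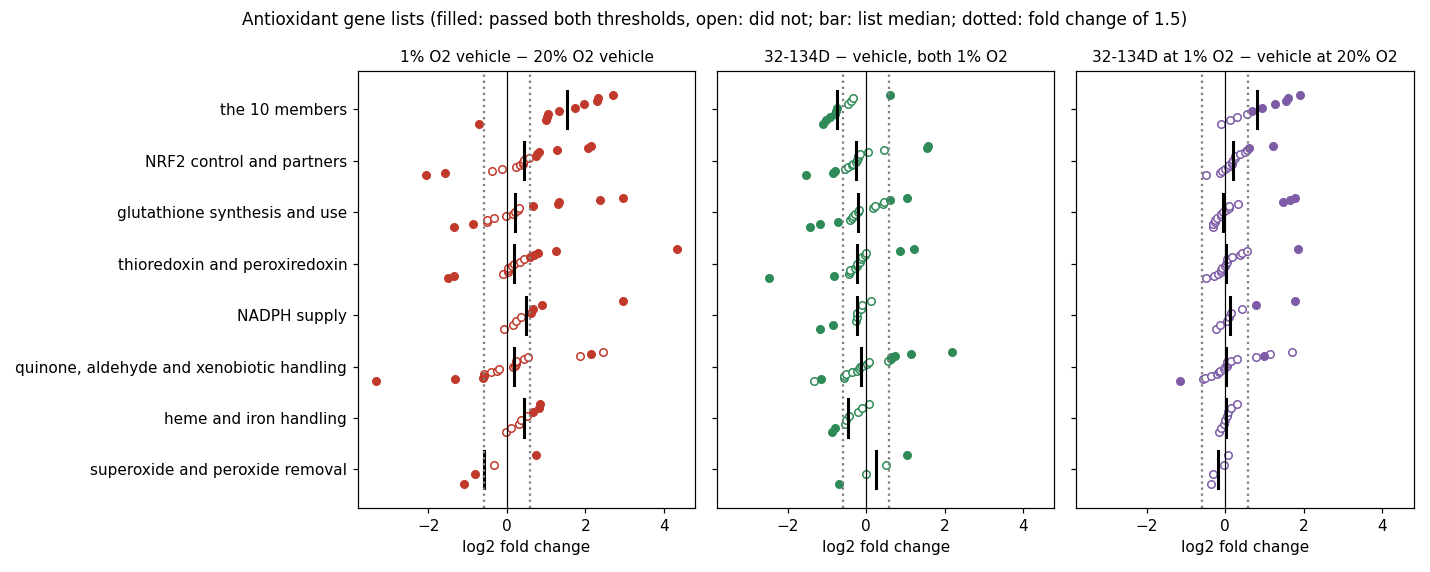
Log2 fold changes (x axis) of the genes of the 7 wider groups and of the 10 main genes (rows) in the 3 comparisons (panels), filled where both thresholds were passed, with a bar at each median. In the compound against normoxia, 9 of the 84 wider genes were higher and 1 lower, and 6 of the 10 main genes were higher and 0 lower.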

How the data were processed

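The authors deposited 1 table of raw read counts per Ensembl gene (release 100, GRCh38), made with FastQC, Bbduk, STAR and featureCounts. The versions and the strand setting are not given in the sources used here. Each of its 9 columns carried the name of 1 sample. The medium is DMEM/F12 in the sample labels and high-glucose DMEM in the methods of the study, which give the dose of 32-134D as 5 μM.

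From the counts, genes with at least 10 counts summed over the libraries were tested with edgeR 4.0.16 in R 4.3.3 (TMM scaling, quasi-likelihood test, 1 fit of 9 libraries). The common biological coefficient of variation was 10.5%. CPM are TMM-scaled, log2 fold changes have an SE derived from the F statistic, and calls required more than a 1.5-fold change at an FDR (Benjamini-Hochberg) under 0.05. Positions and exon lengths are from GENCODE version 29. The genes and the 7 wider lists were chosen with earlier results of these data known. Named from each wider list were up to 3 genes with the largest log2 change among those called with hypoxia or the compound at a mean of 1 CPM or more, and for each main gene the 2 genes with the most similar course; others are marked or are the ones still higher with the compound. Same-numbered replicates did not deviate together, so they were not treated as pairs. Total counts of 6013980 to 40549699 and 3 replicates per group limit the precision. The p-values set each group difference against the spread between these cultures, as estimated in the 1 fit of 9 libraries. The procedure was tested on simulated data. For the hypoxia comparison (22186 genes) edgeR recovered 85% of genes changed by 1 on the log2 scale, and 4.64% of its calls were false. For the compound (22154 genes) it recovered 89%, with 8.7% of its calls false, above the nominal rate. Few genes were changed in the simulation, equally up and down and only among genes with many counts. In the data 39.7% of all genes were called with hypoxia, so these rates do not carry over to the comparisons here. The values of 1 gene outside the pathway are not reported here. Alternatives included DESeq2 1.42.0, other scalings and filters, a replicate block, thinning and leaving out each library in turn.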

Additional observations from a re-analysis of the deposited data

How the results depend on the processing

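For the 10 genes, 540 alternative values were compared with those reported: 530 kept direction and call, 6 lost a call, 4 gained one and 0 reversed. For the named wider genes other than BACH1 the tally was 937 of 1002 kept, 53 lost a call, 6 gained one and 6 reversed. Of 240 counts, 28 moved by more than 1.5 times. With a fold change above 2, 0 of the 10 genes fell with hypoxia, 0 rose and 2 fell with the compound, and 11 wider pathway genes rose with hypoxia, 7 rose and 6 fell with the compound, which follows from the threshold. With no fold threshold 42 wider genes rose with hypoxia, 38 fell with the compound and 16 were above normoxia. Dropping that threshold also added 1906 genes to the 4412 that rose with hypoxia among all genes tested. It added 2688 to the 3100 that fell with the compound, and 1090 to the 681 above normoxia. Counts of all genes at a fold change above 2 were not computed. Thinned to the smallest library, 0 of the 10 fell with hypoxia and 0 rose with the compound, with fewer reads. Wider genes that rose with hypoxia numbered 16 with upper quartile scaling and 15 with total library size, where 3187 and 3081 of all genes rose instead of 4412. With these scalings, the share of higher among all calls moved from 49% to 35.7% and 34.5% with hypoxia. It moved from 54.2% to 66.1% and 72% with the compound, and from 85.3% to 68.4% and 80.2% against normoxia. Leaving out each library, the 10 genes had 0 to 1 rise with the compound (0 without replicate 3 of vehicle at 1% O2 and without replicate 3 of 32-134D). The wider genes lower than normoxia numbered 1 without replicate 1 of vehicle at 1% O2 and 0 without any other library. That count was also 0 by DESeq2, whose adjusted p for AKR1C3 was NA, with 10 counts in every library, with only the 2 groups compared, with the replicate block and with thinning. The log2 difference with the compound reversed for ME1 (0.012 with upper quartile scaling, 0.074 with total size, 0.009 without replicate 1 and 0.002 without replicate 2 of 32-134D, and from -0.297 up when each library was left out) and for SLC7A11 (-0.011 with the replicate block, -0.656 without replicate 3 of 32-134D, and up to 0.526 when other libraries were left out). Replicate numbers correlated at -0.25 to 0.11 within same-numbered pairs, and the replicate block left the counts of the 10 genes at 9 higher and 1 lower with hypoxia, 1 and 6 with the compound, and 6 and 0 against normoxia. Where no construction explains a move, the cause was not tested. Counts were lowest for SRXN1 and NQO1, with 16 and 32 in the smallest library. The SE of the log2 fold change was largest for NQO1, at 0.17 with hypoxia, 0.162 with the compound and 0.165 against normoxia. GCLM came next at 0.152, 0.137 and 0.152, ahead of SRXN1 at 0.149, 0.122 and 0.15.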
